A study of Mus musculus with 6 samples.

Results

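NF-kB transcription factors are dimers that reside in the cytoplasm of resting T cells, held there by inhibitor proteins, and move to the nucleus when the T-cell receptor, costimulatory receptors or cytokine receptors activate the IKK kinase complex. Several of the genes they switch on encode brakes on the same pathway, so that the RNA of these brakes is widely read as a trace of recent NF-kB activity. The 10 genes described here encode 4 NF-kB subunits (Rel, Nfkb1, Nfkb2 and Relb), 2 classical inhibitors that bind the dimers in the cytoplasm (Nfkbia and Nfkbie), the ubiquitin-editing enzyme A20 (Tnfaip3), and 3 nuclear relatives of the inhibitors that act on gene control (Nfkbid, Nfkbiz and Bcl3). They were chosen by name and matched by Ensembl identifier, and all 10 were found among the 49315 genes listed. All 10 also passed the filter on low counts that kept 12838 genes.

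The cells were CD4+ T cells of mice whose transgenic receptor (CBir1 TCR Tg) recognises a flagellin of commensal bacteria, and the study asked how memory cells differ when they meet antigen while metformin or rapamycin is present. Metformin is a drug that perturbs energy metabolism, and rapamycin inhibits the kinase mTOR. Each of the 6 conditions had 1 library. In 5 of them, C57BL/6.CD45.2 recipients had been given 2000000 CD45.1 donor cells of the CD4+CD44- phenotype on day 0 and immunised intraperitoneally on days 1 and 7 with 50 ug CBir1 flagellin and 1 ug CT. The treated mice were given 3 ug MEP1 intravenously on days 28 and 35, each time followed by 5 days of injections of the vehicle CMC alone (MEP1+CMC), metformin in CMC, rapamycin in CMC, or metformin and rapamycin together in CMC, here called the combination. The No treatment mice received neither MEP1 nor inhibitors at that stage. The protocol describes a challenge of every recipient on day 56 (3 ug MEP1) and the sorting of splenic donor cells on day 63. The sixth library was a naive CD4 control of the same transgenic cells, for which the labels give no transfer or immunisation of its own. The ages of the mice, and whether a library pooled several mice, are not given in the sources used here. In the No treatment file the column heading says that there was no challenge, which goes against the label. The groups follow the label. Were the heading correct, differences from No treatment would also hold the challenge.

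The libraries held 26139000 to 60622310 counts, the fewest in the naive control. Levels are given as TMM CPM, counts scaled to a common library size with edgeR's TMM factors. The 8 markers of CD4 T cells were detected in every library and summed to between 6376 and 9366 TMM CPM, as the label has it, while the CD8 markers Cd8a and Cd8b1 summed to at most 30.3. The libraries differ in several ways that touch the comparisons below. In the naive control 15.4% of the counts fell on 5 loci that resemble ribosomal RNA, against 1.00% to 3.13% in the others, and 18888 genes had counts, against 26466 to 30319. Xist, which is expressed from the inactive X chromosome, was at 262 TMM CPM in MEP1+CMC and at 0.218 to 0.486 in the other MEP1 libraries. The Y-linked Ddx3y was at 0.307 in MEP1+CMC and at 62.0 to 95.8 in the others. The No treatment library held both transcripts, at 24.2 and 35.9, and the naive control held Xist at 43.1 and Ddx3y at 0.377. Any difference of an inhibitor library from MEP1+CMC therefore cannot be told apart from a difference in the sex of the mice. The same limit holds for comparisons with No treatment and with the naive control, since these transcripts differ there too. The 13 markers of macrophages, monocytes and dendritic cells summed to 2757 in No treatment, 558 in MEP1+CMC, 303 to 372 in the 3 inhibitor libraries and 46.5 in the naive control, where 1 of them was at 0. Summed erythroid and platelet markers stood at 1457 in No treatment and 47.6 to 323 elsewhere, and the 6 NK markers at 162 in MEP1+CMC and 44.1 to 74.3 elsewhere, with Prf1 alone at 143 in MEP1+CMC and Ncr1 at 1.48 or less in every library. B-cell markers stood at 90.9 in the combination, 30.7 to 51.3 in the other transferred libraries and 111 in the naive control. A list of 10 genes known to rise during cell isolation summed to 11641 in No treatment, 11269 in MEP1+CMC, 8606 with metformin, 8056 with rapamycin, 6172 with the combination and 5155 in the naive control. Junb was the largest part of each sum, at 6001 in No treatment and 2544 with rapamycin. Junb, Egr1, Atf3 and Dusp1 were lower with rapamycin than in MEP1+CMC, and the rest of the list was higher. Fosb was at 85.0 against 40.9, and Hspa1a at 209 against 87.1. Fewer cells of a kind and less RNA per cell cannot be told apart in such libraries.

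Because these genes are known as targets of the factors they encode or restrain, the sequence at their starts is shown first. Windows from 250 bases before to 50 bases after the transcription start were taken from RefSeq (GRCm38.p6), which gave 12 windows for 7 of the 10 genes. The entries missing were Nfkb1, Relb and Nfkbiz. The NF-kB consensus motif, 10 bases long and searched on both strands, was present in at least 1 window of all 7 genes and in 9 of the 12 windows. Over all 32851 windows of the same length, 4.51% held it. The stretch before the start of Tnfaip3 (chr10:19015411-19015547, minus strand) carries the motif 125 and 12 bases before the start. It lies between exons of a longer Tnfaip3 model in the deposited files. The stretch before Nfkbia (chr12:55492648-55492897, minus strand) carries it 29 bases before the start. Capitals mark the motif in each line.
Tnfaip3: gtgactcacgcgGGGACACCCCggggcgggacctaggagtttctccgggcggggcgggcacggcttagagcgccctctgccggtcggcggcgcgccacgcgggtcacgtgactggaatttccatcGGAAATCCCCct
Nfkbia: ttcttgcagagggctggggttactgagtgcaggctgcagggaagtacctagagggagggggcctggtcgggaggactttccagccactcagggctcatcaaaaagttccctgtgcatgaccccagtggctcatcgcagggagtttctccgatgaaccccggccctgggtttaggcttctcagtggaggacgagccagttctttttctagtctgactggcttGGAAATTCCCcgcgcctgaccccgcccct

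Short windows around 1 motif of each of the 5 other genes show how the letters differ between members. They are chr7:30422170-30422199 (plus strand) for Nfkbid, 226 bases before its RefSeq start and between exons of a longer model in the deposited files, chr11:23771042-23771071 (minus strand) for Rel, 92 bases before, chr17:45555584-45555613 (plus strand) for Nfkbie, 106 bases before, chr19:46304688-46304717 (plus strand) for Nfkb2, 39 bases before, and chr7:19822734-19822763 (minus strand) for Bcl3, where the motif begins at base 3 after the start. In Rel and Nfkb2 the capitals cover overlapping matches on both strands.
Nfkbid: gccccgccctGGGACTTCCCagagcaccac
Rel: cgtaagcagcGGGAAATCCCCccccctccc
Nfkbie: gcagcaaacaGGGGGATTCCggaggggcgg
Nfkb2: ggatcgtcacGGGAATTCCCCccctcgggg
Bcl3: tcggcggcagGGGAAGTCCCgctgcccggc
A match describes the letters only. No binding was measured.

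Per kilobase of exon, which allows levels to be compared between genes, Nfkbia was the most abundant of the 10 in every library (288 to 552 TMM CPM per kilobase) and Rel the least abundant (2.35 to 6.75). Tnfaip3 ranked second in every transferred library except MEP1+Rapamycin, where Nfkbid lay above it. In the naive control it ranked seventh, at 14.3 against 162 TMM CPM per kilobase in MEP1+CMC. Bcl3 went the other way and ranked second in the naive control (65.5) and seventh or eighth in the transferred libraries (19.5 to 23.6).

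**Figure D1:**
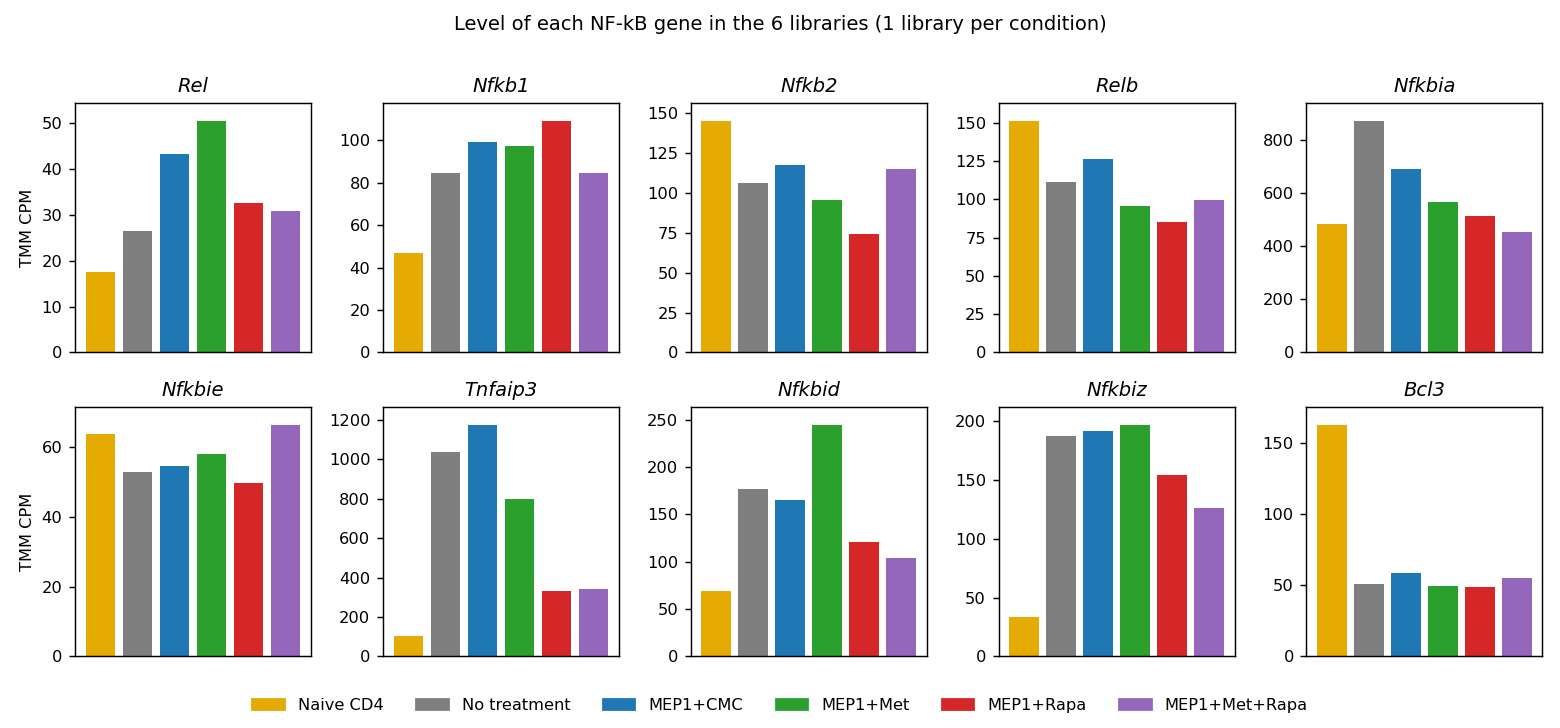
Level of each of the 10 NF-kB genes in TMM CPM (vertical axis, linear from 0, a scale of its own per gene) in the 6 libraries, 1 bar per library with no replicate. Tnfaip3 stands between 801 and 1174 in the No treatment, MEP1+CMC and MEP1+Metformin libraries, at 334 and 340.1 in those with rapamycin, and at 104 in the naive control, while Bcl3 is highest in the naive control.

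No treatment was set against the naive control to see how cells that had been transferred, immunised and challenged differed. Since 1 library stood for each condition, a difference between 2 libraries is given as a log2 ratio with an exact 95% counting interval, and the size rule asks for a ratio of at least 2-fold with an interval that excludes 0. Tnfaip3, Nfkbiz and Nfkbid were higher in No treatment and Bcl3 was lower, so that 4 of the 10 passed, where 24.0% of all 12838 genes did (16.4% as higher and 7.54% as lower). Over all genes 2110 were higher and 968 lower, and with library totals 3284 and 427. The median ratio of the 10 was 0.72, against 0.08 over all genes.

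Tnfaip3, whose protein removes and remodels ubiquitin chains on signalling proteins upstream of IKK (chr10:19000910-19015657, minus strand, GRCm38), was at 104 TMM CPM in the naive control and 1038 in No treatment. Its level was 1174 in MEP1+CMC, 801 with metformin, 334 with rapamycin and 340.1 with the combination. All 5 transferred libraries lay above the naive control, and the rapamycin libraries were the lowest of the 5. The log2 ratio of No treatment to naive was 3.32 (interval 3.26 to 3.39).

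Among the nuclear inhibitor relatives, Nfkbiz, a coactivator of secondary NF-kB response genes (chr16:55811375-55838899, minus strand), was at 33.6 TMM CPM in the naive control. It was at 188 in No treatment, 192 in MEP1+CMC, 197 with metformin, 154 with rapamycin and 126 with the combination. The lowest transferred library was therefore well above the naive control, and the ratio of No treatment to naive was 2.48 (interval 2.37 to 2.60).
Nfkbid, which works with Nfkb1 and Rel family dimers in lymphocytes (chr7:30421732-30428746, plus strand), was at 69.1 in the naive control, 177 in No treatment, 165 in MEP1+CMC, 244 with metformin, 120.4 with rapamycin and 104 with the combination. Metformin gave the highest and the combination the lowest level of the transferred libraries, and all 5 lay above the naive control. Its ratio of No treatment to naive was 1.35 (interval 1.27 to 1.44).
Bcl3, which binds p50 and p52 homodimers in the nucleus (chr7:19808462-19822770, minus strand), was at 162 in the naive control. The transferred libraries lay close together, at 50.8 in No treatment, 58.3 in MEP1+CMC, 49.5 with metformin, 48.4 with rapamycin and 54.9 with the combination. Each was below the naive control by about the same amount, and the ratio of No treatment to naive was -1.68 (interval -1.75 to -1.60). An antisense gene, Gm16175, shares 161 bases of Bcl3 exons but had at most 2 counts in any library.

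Of the classical inhibitors, Nfkbia, which encodes IkB-alpha (chr12:55489411-55492647, minus strand), was at 483 TMM CPM in the naive control, 870.2 in No treatment, 690.0 in MEP1+CMC, 566 with metformin, 515 with rapamycin and 454 with the combination. The naive control lay inside the range of the transferred libraries, above the combination alone. Nfkbie, which encodes IkB-epsilon (chr17:45555716-45563169, plus strand), stayed between 49.8 and 66.3 in the transferred libraries, and the naive control at 63.8 lay within that range.

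Of the subunits, Nfkb1, the precursor of p50 (chr3:135584655-135691547, minus strand), was at 46.8 in the naive control and at 84.6 to 109 in the transferred libraries, highest with rapamycin. Rel, which encodes c-Rel and is needed for cytokine genes in activated lymphocytes (chr11:23736847-23770970, minus strand), was at 17.5 in the naive control and at 26.5 in No treatment, 43.3 in MEP1+CMC, 50.4 with metformin, 32.6 with rapamycin and 30.9 with the combination. Both genes were lowest in the naive control. Nfkb2, the precursor of p52 (chr19:46304737-46312090, plus strand), was at 145 in the naive control and at 74.5 (rapamycin) to 117 (MEP1+CMC) in the others. Relb, the usual partner of p52 (chr7:19606217-19629438, minus strand), was at 151 in the naive control and at 85.5 (rapamycin) to 126 (MEP1+CMC) in the others. These lower levels of Nfkb2 and Relb hold with TMM scaling and not with every scaling, since scaling by library totals raises No treatment over naive by 0.42 for all genes, and the fitted differences of the 5 transferred libraries from naive then become 0.08 and 0.04. Nfkb2 shares 4 exon bases with Psd on the opposite strand, and the strand setting of the counting is not given in the sources used here.

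A test over several libraries was possible for the 5 transferred libraries against the naive control, with edgeR's quasi-likelihood test and Benjamini-Hochberg adjustment over all 12838 genes. In that test 3 of the 10 were called at an adjusted p below 0.05, where 9.81% of all genes were (4.19% rose and 5.62% fell). The split over all genes was 538 up and 721 down, 2482 up and 190 down with library totals, and 2147 up and 1581 down with DESeq2. Nfkbiz rose by 2.35 on the log2 scale (SE 0.34, adjusted p 0.0044) and Nfkb1 by 1.02 (SE 0.25, adjusted p 0.031), and Bcl3 fell by 1.63 (SE 0.18, adjusted p 0.0014). Each of these directions was seen in 5 of 5 libraries. The Nfkb1 call was lost without MEP1+CMC (adjusted p 0.066), without MEP1+Metformin (0.066), without the combination (0.057), and with no filter on low counts (0.059). Tnfaip3 had the largest fold change of the 10, 2.83 with an SE of 0.92, but did not pass (adjusted p 0.107). Nfkbid (1.23, adjusted p 0.117) and Rel (1.07, adjusted p 0.113) did not pass either, although all 5 libraries lay above the naive control for each of the 3. The spread in this model holds the differences between treatments as well, and a single naive library is assumed to vary like the others. The macrophage marker sum was 303 to 2757 TMM CPM in the transferred libraries against 46.5 in the naive control, and its part in these differences was not tested. Ddx3y was at 0.377 in the naive control, 0.307 in MEP1+CMC and 35.9 to 95.8 in the other transferred libraries. The part of sex was not tested either.

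Prior exposure to MEP1 on days 28 and 35, without inhibitor, was compared as MEP1+CMC against No treatment. None of the 10 passed the size rule, where 11.5% of all genes did. Rel showed the largest ratio, 0.71 (interval 0.61 to 0.80), and Nfkbia the lowest, -0.33 (interval -0.35 to -0.32). Tnfaip3 was at 0.18 (interval 0.16 to 0.19). When the 4 MEP1 libraries were tested together against No treatment, 0 of the 10 were called by edgeR, where 1.90% of all genes were, and DESeq2 also called 0. At an unadjusted p below 0.05 there was 1, Nfkbia, with a log2 difference of -0.64 (SE 0.26, adjusted p 0.25) and lower levels in 4 of 4 libraries. The share of all genes at that unadjusted threshold was not counted. The macrophage marker sum was also lower in the MEP1 libraries (303 to 558 against 2757), and its part was not tested. Sex-linked transcripts differed too, with Xist at 24.2 and Ddx3y at 35.9 in No treatment. They were at 262 and 0.307 in MEP1+CMC, and at 0.218 to 0.486 and 62.0 to 95.8 in the inhibitor libraries. The part of sex was not tested.

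The effect of the inhibitors was compared within the 4 MEP1 libraries. With metformin, none of the 10 passed the size rule against MEP1+CMC, where 5.63% of all genes did. Nfkbid was the highest at 0.56 (interval 0.53 to 0.60) and Tnfaip3 the lowest at -0.55 (interval -0.57 to -0.53), so that these ratios were of similar size and opposite sign. With rapamycin, Tnfaip3 alone passed, at -1.81 (interval -1.84 to -1.78), a 3.51-fold lower level, where 11.0% of all genes passed (5.83% as lower). With the combination, Tnfaip3 again was the 1 gene of the 10 to pass, at -1.79 (interval -1.81 to -1.76), where 6.70% of all genes passed (3.68% as lower). These comparisons share the MEP1+CMC library. Over all genes 661 were higher and 749 lower with rapamycin, and 387 and 473 with the combination, but with library totals these splits were 965 against 575 and 533 against 403. The combination and rapamycin alone gave nearly the same Tnfaip3 level, with a ratio of 0.02 (interval -0.01 to 0.06) that became -0.15 to -0.02 under 4 other scalings. None of the 10 passed in that comparison, where 6.33% of all genes did.

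The comparisons that avoid the MEP1+CMC library, and with it the difference in sex-linked transcripts, set the rapamycin libraries against MEP1+Metformin. Tnfaip3 and Nfkbid were the 2 genes of the 10 that passed, and both were lower. These comparisons share the MEP1+Metformin library, in which Nfkbid was higher (244) than in any other library, and against MEP1+CMC Nfkbid did not pass (-0.45 with rapamycin and -0.66 with the combination). In MEP1+Rapamycin, Tnfaip3 was at -1.26 (interval -1.29 to -1.23) and Nfkbid at -1.02 (interval -1.07 to -0.97), where 8.07% of all genes passed (4.03% as lower). Nfkbid sat at the 2-fold limit, and its ratio was between -0.90 and -0.88 with DESeq2 size factors, a stricter filter or TMM factors taken from the genes kept. In the combination, Tnfaip3 was at -1.24 (interval -1.26 to -1.21) and Nfkbid at -1.23 (interval -1.27 to -1.18), where 2.98% of all genes passed (1.71% as lower). Over all genes 518 were higher and 518 lower with rapamycin than with metformin, and 726 and 388 with DESeq2 size factors. In the combination, Rel (-0.71) and Nfkbiz (-0.64) were lower than with metformin without reaching the limit. Nfkbie, Nfkb2, Relb and Bcl3 had ratios between 0.06 and 0.27.

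**Figure D2:**
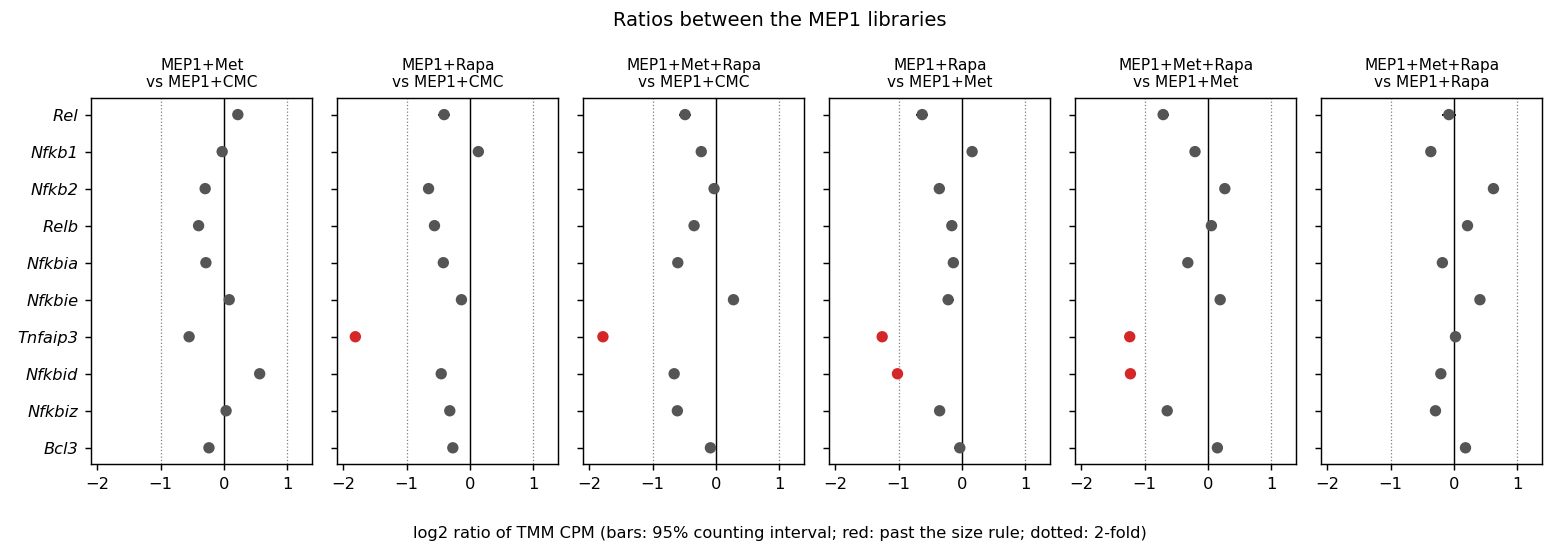
Log2 ratios of TMM CPM (horizontal axis) of the 10 genes between pairs of MEP1 libraries, with 95% counting intervals that mostly fit inside the points. Red points passed the size rule and dotted lines mark 2-fold. Tnfaip3 passed in the 4 panels that set a library with rapamycin against one without, between -1.81 and -1.24, and Nfkbid in the 2 panels against MEP1+Metformin.

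The additive model of the 4 MEP1 libraries gave 1 term for each inhibitor, with 1 residual degree of freedom. For metformin, 0 of the 10 were called by edgeR, where 0.164% of all genes were, and none had an unadjusted p below 0.05. DESeq2 also called 0. For rapamycin, Tnfaip3 fell by 1.52 on the log2 scale (SE 0.24, adjusted p 0.0075) and was the 1 gene of the 10 called, where 0.203% of all genes were (0.148% fell). Its adjusted p ranged from 5.7e-13 to 0.87 over the alternatives. It was no longer called when all genes with a total count of 10 were tested (0.87, with 0 genes called at all), or when MEP1+CMC was left out and metformin was not fitted (log2 difference -1.25, adjusted p 0.13). The same rapamycin term called Xist as lower by 7.51 (adjusted p 2.6e-08), although Xist was high in MEP1+CMC alone. The part of the MEP1+CMC library in the Tnfaip3 call cannot be told apart from rapamycin by this model. Against MEP1+Metformin, which matches in sex-linked transcripts, the ratios were -1.26 with rapamycin and -1.24 with the combination, each between single libraries. Genes of the isolation list differed there too. Egr1 was at 340 TMM CPM with metformin, 157 with rapamycin and 168 with the combination, and Hspa1a at 50.4, 209 and 109. Their part was not tested. Nfkbid (-0.84, adjusted p 0.26), Rel (-0.56, 0.61) and Nfkbiz (-0.48, 0.75) had unadjusted p below 0.05 and did not pass the adjustment. The share of all genes with an unadjusted p below 0.05 was not counted. With the stricter filter Nfkbid was also called (adjusted p 0.027).

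**Figure D3:**
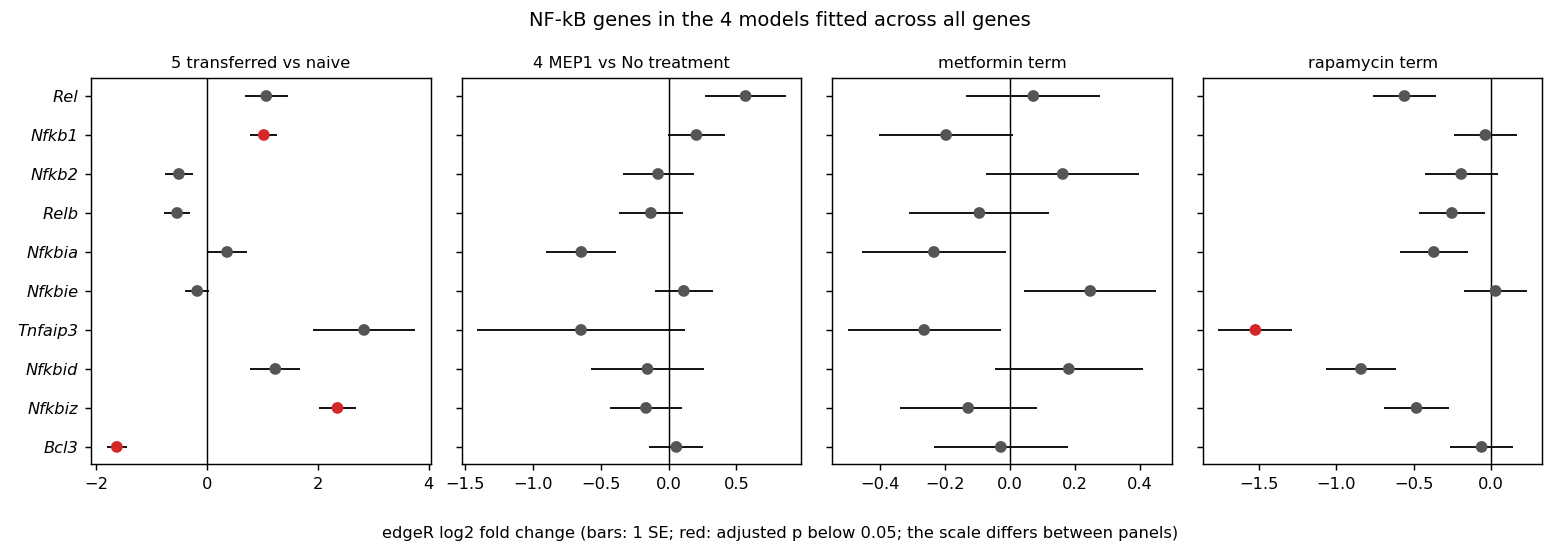
Log2 fold change (points) and 1 SE (bars) of the 10 genes in the 4 edgeR models, with adjusted p below 0.05 in red and a horizontal scale of its own in each panel. Nfkbiz, Nfkb1 and Bcl3 are called in the comparison with the naive control, and Tnfaip3 in the rapamycin term, where it fell by 1.52.

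Metformin differed in its ratio with and without rapamycin for several genes. The ratio without rapamycin uses MEP1+CMC, which alone of the MEP1 libraries was high in Xist and low in Ddx3y. The differences below therefore cannot be told apart from a difference in the sex of the mice. They also depend on scaling, since the stricter filter shifted the ratio of every gene by 0.05 without rapamycin and by -0.17 with it. Nfkb2 was at -0.30 for metformin alone against MEP1+CMC and at 0.63 for the combination against rapamycin, a difference of 0.92. Relb, its partner, went from -0.40 to 0.22. Tnfaip3, the gene called in the rapamycin term, went from -0.55 to 0.02, a difference of 0.58. Nfkbid went the other way, from 0.56 to -0.21, a difference of -0.77. Nfkbia was close to additive, at -0.29 and -0.18. None of these ratios reached 2-fold, and with 4 libraries there was no replicate with which to test the departure. When MEP1+CMC was left out and rapamycin was not fitted, the metformin term called 1 of the 10, Nfkb2 (0.50, adjusted p 0.037), but that fit called 20.3% of all genes, 1962 as higher and 640 as lower, so that 1 of 10 is below the share over all genes.

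Against No treatment the inhibitor libraries also differ in earlier MEP1 and in sex-linked transcripts. None of the 10 passed with metformin, where 14.1% of all genes did. Tnfaip3 alone passed with rapamycin (-1.63, interval -1.66 to -1.61), where 16.3% of all genes did (7.28% as lower), and with the combination (-1.61, interval -1.63 to -1.59), where 13.4% did (4.92% as lower). Rel was higher with metformin by 0.93 (interval 0.83 to 1.02), just inside 2-fold. Nfkbia was lower in all 3, at -0.62 with metformin, -0.76 with rapamycin and -0.94 (interval -0.96 to -0.92) with the combination. These comparisons share the No treatment library. Over all genes 1161 were higher and 934 lower with rapamycin, and 1086 and 632 with the combination, and with library totals 1674 against 583 and 1567 against 450.

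Over the 5 transferred libraries, Tnfaip3 and Nfkbid varied most of the 10. The highest level of Tnfaip3 was 3.51 times its lowest, wider than for 89.0% of the genes with counts in all 5 libraries, and that of Nfkbid 2.34 times, wider than for 80.3%. The range of the other 8 ran from 1.21-fold (Bcl3) to 1.92-fold (Nfkbia). The naive control lay inside the transferred range for Nfkbia and Nfkbie and outside it for the others. The share of all genes for which it lay outside was not counted, so this is not read as a trait of the set.

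The other genes of the pathway were read from lists written with general knowledge, but with earlier results of these data known. Counts over these lists are therefore not independent of the data. The remaining subunit Rela and the inhibitor Nfkbib passed the size rule in 0 of 11 comparisons, with Rela at 208 to 299 TMM CPM. Of all genes, 2.98% to 24.0% passed, depending on the comparison. Of 15 genes that carry signals to IKK, 0 passed in No treatment against the naive control, where 24.0% of all genes did. In other comparisons 1 passed, the ubiquitin ligase Traf6. With rapamycin it was lower than with metformin (-1.19), where 4.03% of all genes were lower. It was also lower than in No treatment (-1.09), where 7.28% of all genes were. The median ratio of these 15 genes was -0.31 in MEP1+Rapamycin against MEP1+CMC and 0.04 in the combination, beside -0.13 and -0.01 over all genes. In the test against the naive control 1 of the 15 rose and 1 fell, near the shares over all genes (4.19% and 5.62%). Traf5, an adaptor of TNF receptors, rose by 0.95 (SE 0.23, adjusted p 0.033) and Tab1, a partner of the kinase TAK1, fell by 0.77 (SE 0.21, adjusted p 0.047). Of 8 genes of the noncanonical pathway, which processes the Nfkb2 product, 1 rose and 1 fell in that test, beside the same shares. The costimulatory receptor Tnfrsf4 (OX40) rose by 3.19 in the transferred libraries (SE 0.29, adjusted p 0.00043). The kinase Map3k14 (NIK), which drives that pathway, fell by 0.99 (SE 0.19, adjusted p 0.014). Between single libraries of MEP1 mice, the TNF receptor Tnfrsf1b was the 1 gene of the 8 to pass the size rule. It was lower with rapamycin than in MEP1+CMC (-1.20), where 5.83% of all genes were lower. Of 12 further negative regulators, 1 rose and 0 fell, where 9.81% of all genes were called. It was the RNase Zc3h12a (Regnase-1), with a rise of 1.33 (SE 0.36, adjusted p 0.045). Tnip1, which binds A20, was at 105 to 119 TMM CPM in all 6 libraries.

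Of 22 known NF-kB targets in T cells, 21 were measured. In No treatment against naive, 12 were higher and 1 lower, where 16.4% and 7.54% of all genes were, with a median of 1.32 beside 0.08 over all genes. The chemokines Ccl4 (7.49) and Ccl3 (7.16) and the early gene Ier3 (5.81) had the largest ratios. In the same pair 11 of 11 measured macrophage, monocyte and dendritic cell markers were higher, where 16.4% of all genes were. Their median was 5.13, and their part in these ratios was not tested. With rapamycin 9 of the 21 were lower than in MEP1+CMC and 0 higher, where 5.83% of all genes were lower, with a median of -0.86 beside -0.13 over all genes. Ccl4 (-4.08), Ccl3 (-4.04) and Ier3 (-3.62) led again. With the combination 7 were lower, where 3.68% of all genes were, and with metformin 5, where 2.98% were. The MEP1+CMC library was itself high in these 3 genes, with Ccl4 at 709.9 TMM CPM against 165 in No treatment. NK markers differed between these libraries too, but not all in the same direction. Ncr1, which the filter left out, was at 0.938 TMM CPM in MEP1+CMC and 1.48 with rapamycin, and Klrd1 at 9.13 and 7.82. Of 5 measured, 3 were lower and 1 higher with rapamycin than in MEP1+CMC, where 11.0% of all genes passed (5.83% as lower). They were Klrb1c (-3.31), Klre1 (-3.25), Prf1 (-1.99) and Gzma (1.44). Klre1 passed the filter on low counts only through MEP1+CMC (3.07 TMM CPM), so its lower level elsewhere follows from the filter and is no support. The rapamycin term called Klrb1c as lower, with a log2 difference of -3.39 (adjusted p 0.0020). Its levels were 0.486 to 7.65 TMM CPM in the MEP1 libraries. The part of NK cells in these ratios was not tested. Against MEP1+Metformin, 4 of the 21 were lower with rapamycin, among them Tnf at -1.07, where 4.03% of all genes were lower, with a median of -0.34 beside -0.11 over all genes. With the combination 0 passed, where 2.98% of all genes did, with a median of -0.11 beside 0.03. In the edgeR models Traf1, Bcl2a1b, Irf4 and Cd83 rose and Myc fell against the naive control, where 4.19% of all genes rose and 5.62% fell. In the other 3 models 0 of the 21 were called by edgeR. Of all genes, 1.90% were called in the MEP1 model, 0.164% in the metformin term and 0.203% in the rapamycin term. Tnf came closest in the rapamycin term (-1.04, SE 0.22, adjusted p 0.055). Bcl2a1b has near-identical copies, so that its counts are uncertain.

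The genes whose levels over the 6 libraries lay closest to those of Tnfaip3, by Euclidean distance between log2 profiles centred on each gene's mean among 8620 genes of at least 10 TMM CPM on average, were Cela1 (distance 0.50), Pmaip1 (0.57), Rgs1 (0.57), Tnf (0.60) and Egln3 (0.67). Rgs1 is a regulator of G protein signalling, and Pmaip1 a cell death gene (NOXA). Rgs1 was at 1069 TMM CPM in MEP1+CMC, 210 with rapamycin and 267 with the combination. For Nfkbid they were Zc3h12a (0.54), Lemd3 (0.54), Sik1 (0.58), Skil (0.59) and Anxa2 (0.61). Egr1, an immediate-early gene on the isolation list, also fell in the rapamycin term (by 1.48, SE 0.25, adjusted p 0.015), while Hspa1a of the same list rose by 1.19 (SE 0.21, adjusted p 0.012). The part of cell isolation in the Tnfaip3 levels was not tested.

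**Figure D4:**
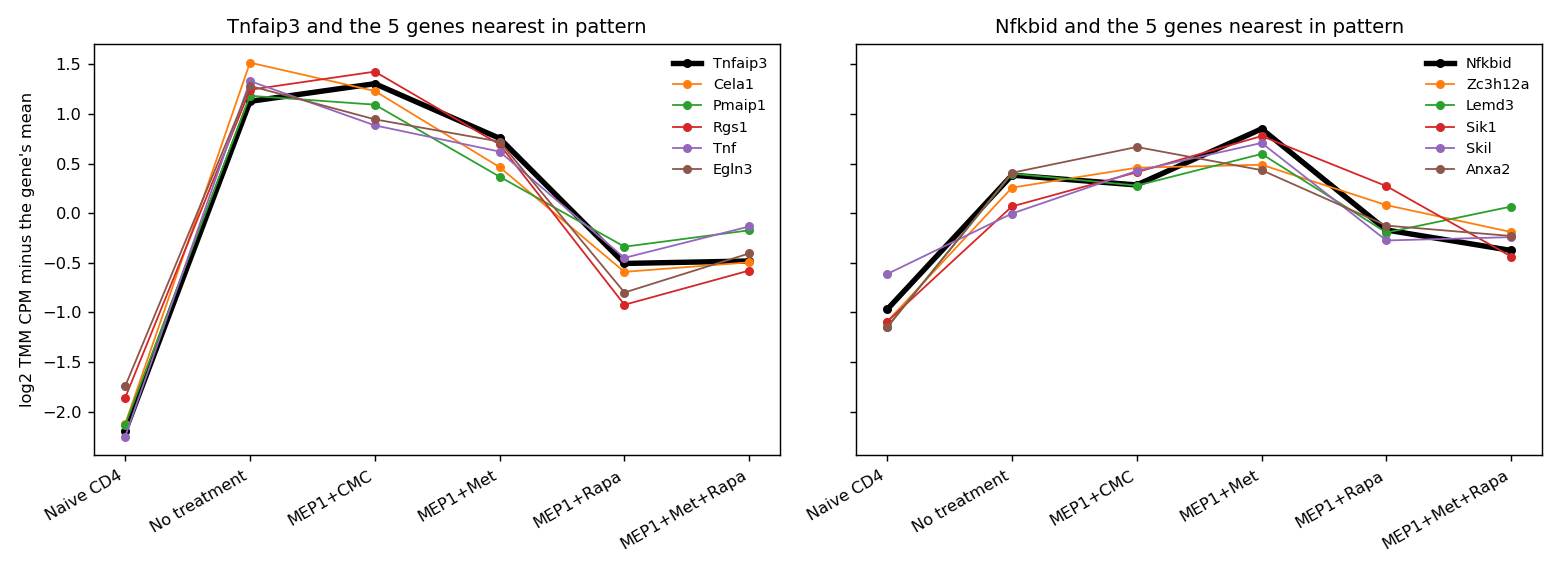
Log2 TMM CPM minus each gene's own mean over the 6 libraries (vertical axis) for Tnfaip3 (left, black) and Nfkbid (right, black) with the 5 genes nearest to each in pattern (colours), 1 point per library. In the Tnfaip3 panel every gene is lowest in the naive control and lower in the libraries with rapamycin than in the 3 other transferred libraries.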

How the data were processed

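The authors deposited raw read counts per gene over exons, 1 table per library. The submitters' processing notes list STAR 2.5.2b, Subread 1.5.2, featureCounts and Trimmomatic 0.36 as tools and GRCm38 as the build. The members and gene lists were chosen with earlier results of these data known. TMM factors came from all genes (edgeR 4.0.16, R 4.3.3), and ranged from 0.711 (naive) to 1.15. Genes were kept with at least 2 TMM CPM and 10 counts in at least 1 library. Intervals of ratios are exact 95% Clopper-Pearson intervals of the 2 counts (scipy 1.17.1) and cover counting error only, since each condition had 1 library. Reads are not independent molecules, so the intervals may be too narrow even for that error. The 4 edgeR models (glmQLFit and glmQLFTest, robust) had 4, 3, 1 and 1 residual degrees of freedom, and with no replicate of any condition their p-values speak only of the spread among these 6 libraries. SE is the absolute log2 fold change over the square root of F. All 10 members are named, and of each list up to 4 genes past the size rule with the largest ratios. Alternatives were other scalings, filters, DESeq2 1.42.0 and leaving out libraries. Scripts were tested on simulated data.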

Additional observations from a re-analysis of the deposited data

How the results depend on the processing

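Counts of members past the size rule changed by more than 1.5 times in 3 of the 11 pairs. For No treatment against naive the count was 7 with library totals in place of 4, where 3284 of all genes were higher and 427 lower. For MEP1+Rapamycin against MEP1+Metformin it was 1 in place of 2 with DESeq2 size factors, the stricter filter and TMM factors from the genes kept. Those factors were chosen after seeing the data. For MEP1+Metformin against No treatment it was 1 (Rel) in place of 0 with library totals, the stricter filter and those factors. With library totals 1711 of all genes were higher and 442 lower in that pair. The transferred against naive model called 6 members with library totals, 7 with DESeq2 and 5 with the stricter filter, in place of 3. Of all genes these fits called 20.8%, 29.0% and 17.7%, in place of 9.81%. Leaving out 1 library, the model called 2 to 4 members, where 5.40% to 23.4% of all genes were called. The MEP1 model called 0 under every alternative, leaving out libraries included. The rapamycin term called 0 with no filter, where more genes were tested, 2 with the stricter filter, and 0 without MEP1+CMC with metformin not fitted. The metformin term called 1 of the 10, Nfkb2, without MEP1+CMC with rapamycin not fitted, where 20.3% of all genes were called. These fits without MEP1+CMC were added after seeing the data. Other causes were not tested. Of the other counts of members, 93 were within 1.5 times. No called direction reversed. Library totals moved the median of all genes by up to 0.42 (No treatment against naive), the other scalings by up to 0.28. Depth limits little here, since the lowest member count was 326 (Rel, naive). No paired analysis was possible because each condition has 1 library.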
